A study of Mus musculus with 46 samples.

Results

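The Hsd3b cluster and Hao2 form a run of related and adjacent genes on mouse chromosome 3, and 6 genes of the 21627 protein-coding genes examined are described here: Hsd3b5, Hsd3b2, Hsd3b3, Hsd3b6, Hsd3b1 and Hao2. They were chosen by the length of DNA that histone-mark peaks covered in each gene body plus 2.5 kb on either side, because neighbours in the run differed between the genotypes in opposite directions. All differences between genotypes at these 6 genes are therefore a description and carry no test.

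The livers came from female mice of the FVB background, aged 11 weeks and fed standard chow. Wild-type (WT) mice were set against PA mice, which carry the hypomorphic A138T form of Pcca, a subunit gene of propionyl-CoA carboxylase, which clears propionyl-CoA in mitochondria. Chromatin of frozen liver was cut with micrococcal nuclease and precipitated without crosslinking (native ChIP) with antibodies against acetylated (ac), propionylated (pr) or butyrylated (bu) histone lysines. Preparations labelled A were used for H3K9ac, H3K27ac, H4K16ac and H4K16bu, and preparations labelled B for H4K5ac, H4K5pr, H4K12ac, H4K12pr and a commercial (Thermo) H4K16pr antibody. Each of the 9 antibodies had 2 WT and 2 PA libraries, which makes 36 compared libraries and 4 preparations per genotype. A second H4K16pr antibody, made in-house, was used in 2 WT libraries and in no PA library. No label states if preparations A and B that carry the same number were taken from 1 liver. Peak coverage of Pcca was not used here to check the genotype labels.

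Hsd3b enzymes are 3-beta-hydroxysteroid dehydrogenases. The classical form, Hsd3b1 in the mouse, oxidises and isomerises delta-5 steroids in adrenal gland and gonads, a step on the way to progesterone and androgens. Hsd3b2 and Hsd3b3 are forms of mouse liver and kidney, Hsd3b6 is a form of adrenal, placenta and skin, and Hsd3b5 is a 3-ketosteroid reductase that is known for its much higher expression in male than in female mouse liver. Hao2 encodes a peroxisomal oxidase of long-chain 2-hydroxy acids.

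The compared libraries held 32358 to 70887 peaks, and the median covered length was 112.0 Mb in WT and 129.3 Mb in PA libraries, with the higher mean in PA for 9 of 9 antibodies. Nothing in the sources used here gives the read depth, so a base outside a peak is called not listed rather than unmarked. The hepatocyte markers Alb, Ttr, Apoa1, Serpina1a and Cps1 were listed in 36 of 36 libraries, and the cholangiocyte markers Krt19, Krt7, Epcam and Cftr in 0. The summed covered length of 4 sinusoidal endothelial markers was 31898 to 40332 bp in the WT and 47830 to 52822 bp in the PA preparations. That of 5 hepatocyte markers was 48361 to 95657 bp and 72098 to 111565 bp. The endothelial marker Stab2 (mean 17842 bp in WT and 30882 bp in PA) and Cps1 (33655 and 51010 bp) moved most. The other markers of these lists moved less. Kupffer cell markers summed to 0 to 4489 bp in WT and 0 to 3676 bp in PA. Stellate cell markers summed to 1539 to 5411 bp and 3098 to 7933 bp. The part of these shifts in the differences below was not tested. In bulk liver, fewer cells that carry a mark and less mark per cell cannot be told apart. Of 7 markers of steroid-making endocrine cells, Cyp11b1 and Mc2r were listed in 0 of 36 libraries, Nr5a1 in 2, Cyp11a1 in 3 and Cyp21a1 in 7. Cyp11b2 was listed in 36 (mean 1579 bp in WT and 2050 bp in PA) and Star in 22 (426 and 871 bp). The sum, which comes mostly from Cyp11b2 and Star, ran from 1534 to 2635 bp in WT and from 2236 to 4209 bp in PA.

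The genes are all transcribed from the minus strand, and in order of coordinate they are Hsd3b5 (GRCm38 chr3:98618636-98645534), Hsd3b2 (chr3:98711107-98724543), Hsd3b3 (chr3:98741476-98764540), Hsd3b6 (chr3:98805504-98814443), Hsd3b1 (chr3:98842356-98859794) and Hao2 (chr3:98874519-98895376). Gaps of 14724 to 65572 bp separate neighbours, so no 2 of the windows overlap. At Hsd3b5, Hsd3b1 and Hao2 part of the genotype difference lay over the start. Hsd3b3 is the closest match to Hsd3b5 and was listed at its start in every compared library. The sequences just before the starts of these 4 genes are therefore shown. Each is the 250 bases before the start in the RefSeq promoter table (GRCm38.p6, minus strand, written 5′ to 3′). For Hsd3b3 and Hao2 that start lies 1412 and 2146 bp inside the gene coordinates above, so their stretches are not upstream of the whole annotated gene, and for the other 4 members it is the gene's edge. The Hsd3b5 stretch is chr3:98645535-98645784 and the Hsd3b3 stretch is chr3:98763129-98763378, and capitals mark the bases that are identical between them in a local alignment.
Hsd3b5: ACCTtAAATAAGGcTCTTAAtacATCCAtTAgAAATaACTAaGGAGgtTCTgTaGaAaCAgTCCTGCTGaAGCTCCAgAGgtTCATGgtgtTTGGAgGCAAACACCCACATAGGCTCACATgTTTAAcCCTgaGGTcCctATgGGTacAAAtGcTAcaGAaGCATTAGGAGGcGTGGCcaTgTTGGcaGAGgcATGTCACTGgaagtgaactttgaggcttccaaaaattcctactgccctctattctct
Hsd3b3: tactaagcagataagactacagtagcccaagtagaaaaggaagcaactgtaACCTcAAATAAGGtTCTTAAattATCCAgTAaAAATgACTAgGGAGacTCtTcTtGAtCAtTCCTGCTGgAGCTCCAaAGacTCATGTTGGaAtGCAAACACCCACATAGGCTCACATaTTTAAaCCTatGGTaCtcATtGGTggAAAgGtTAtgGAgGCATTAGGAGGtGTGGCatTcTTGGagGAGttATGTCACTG
The alignment spans 197 bases, of which 154 are identical (78.2%), and the longest shared run has 24 bases. None of the other gene pairs aligned over more than 31 bases. The RefSeq promoter table gives Hsd3b3 a second start 718 bp downstream of the first, and the stretch before it matches the first in 248 of 249 aligned bases. Reads from such copies can be shared or lost by an aligner, and no source used here says how the submitters treated them, so coverage at these starts is uncertain to that extent.

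The stretches before Hsd3b1 (chr3:98859795-98860044) and Hao2 (chr3:98893231-98893480) follow, with capitals on matches to 2 of the 6 motifs searched on both strands.
Hsd3b1: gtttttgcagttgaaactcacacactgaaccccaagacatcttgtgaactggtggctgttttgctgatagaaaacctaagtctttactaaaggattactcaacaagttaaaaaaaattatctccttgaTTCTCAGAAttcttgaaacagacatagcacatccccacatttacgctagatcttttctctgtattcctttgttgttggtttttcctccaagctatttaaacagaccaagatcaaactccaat
Hao2: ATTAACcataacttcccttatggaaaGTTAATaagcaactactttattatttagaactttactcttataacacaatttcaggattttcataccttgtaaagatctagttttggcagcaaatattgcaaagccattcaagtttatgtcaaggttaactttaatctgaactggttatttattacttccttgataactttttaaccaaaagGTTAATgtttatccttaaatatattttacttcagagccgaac
The capitals in Hsd3b1 match TTCNNNGAA, the letters bound by STAT5 and BCL6, 122 bases before the start, and 7.04% of 32585 RefSeq promoters hold such a match in the same stretch. The capitals in Hao2 are 3 matches to GTTAAT, the core letters bound by HNF1, at 250, 224 and 42 bases before the start. At least 1 such match is held by 6.43% of promoters, and the share with 3 was not computed. Hsd3b6 has 1 GTTAAT match. The stretches of Hsd3b5, Hsd3b2 and Hsd3b3 held no match to these motifs or to TGTTTAC (forkhead, in 3.18% of promoters), AGGTCA (nuclear receptor core, 14.1%), ATTGAT (HNF6 and CUX, 6.69%) or TATAAA (the TATA box, 12.4%), which says only that these letters are not in this window.

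Hsd3b5 was the member with less covered length in PA liver. Averaged over the antibodies of each preparation, peaks covered 9165 and 10278 bp of its window in WT preparations 1A and 2A and 11513 and 12683 bp in WT 1B and 2B. The PA preparations had 5115 and 6391 bp in 1A and 2A and 6955 and 8834 bp in 1B and 2B. Every PA value was below every WT value, the WT mean being 10910 ± 1522 bp and the PA mean 6824 ± 1546 bp (SD, n = 4 preparations each), or 34.2% and 21.4% of the window. Across the 16079 genes that 2 or more libraries covered by at least 1 base, the 4 PA preparations were all below the 4 WT ones at 0.815% of genes and all above at 21%. Since this contrast chose the member, nothing is read from that share.

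The lower coverage of Hsd3b5 in PA was present with each antibody. Both PA libraries lay below both WT libraries for 9 of 9 antibodies, and the difference of means, PA minus WT, ran from −2685 bp for H4K16ac to −5104 bp for H4K16bu. With H3K9ac, WT libraries had 6405 and 7763 bp and PA libraries 2861 and 3106 bp. With H4K16bu the WT libraries had 11221 and 11415 bp and the PA libraries 3796 and 8632 bp, so PA 1 was well below PA 2. For H4K16ac the order of the PA pair was the other way, with 5536 bp in PA 1 and 2040 bp in PA 2. The nearest single libraries of the 2 genotypes were those of H4K5ac, where WT libraries had 15489 and 13642 bp and PA libraries 8859 and 13423 bp.

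**Figure D1:**
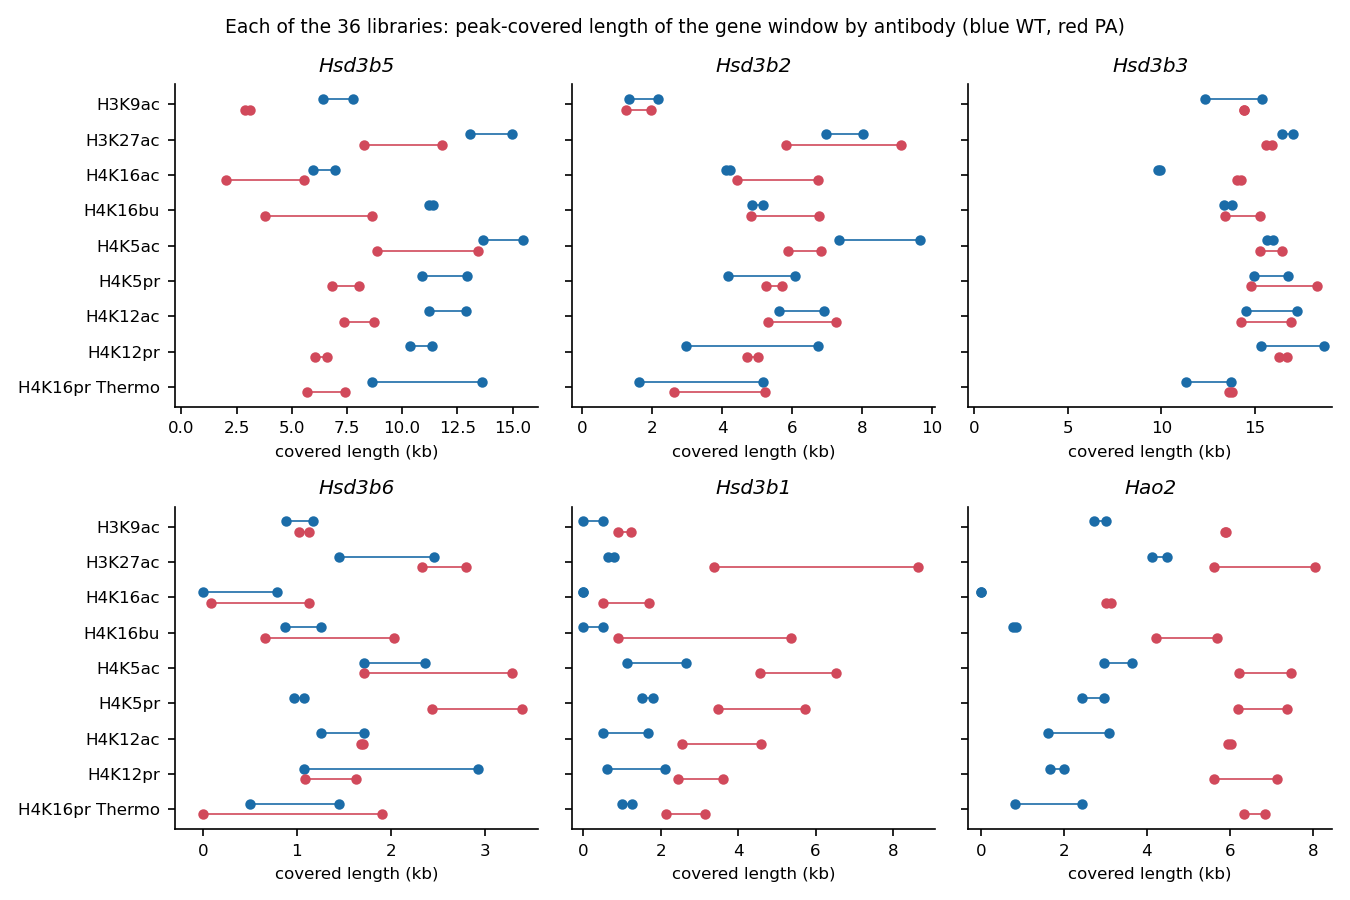
Covered length in kb (x axis) of each gene window in each of the 36 libraries, by antibody (y axis), with the 2 WT libraries in blue and the 2 PA libraries in red, each pair joined by a line. For Hsd3b5 each red pair lies left of the blue pair, and for Hsd3b1 and Hao2 each red pair lies right of it.

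At the start of Hsd3b5 the difference was close to presence against absence. The start base lay in a peak in 16 of 18 WT libraries and in 3 of 18 PA libraries, which were H4K16bu of PA 2A, H4K16pr of PA 2B and H4K5ac of PA 1B. In the 2000 bp centred on the start, peaks covered 1696, 1447, 1848 and 1969 bp in WT 1A, 2A, 1B and 2B, and 0, 265, 100 and 100 bp in the same PA preparations. Most of the window was covered in every WT preparation and little or none in any PA preparation. WT peaks over the start were 638 to 4149 bp wide (median 2824 bp), and the 3 PA peaks were 500 to 1188 bp wide, where 500 bp is the shortest peak any library lists. With the same number of peaks kept in each library, the widest ones, 16 WT libraries and 1 PA library listed the start. Such a cut removes the shortest peaks first, so it cannot show what the number of peaks does to the short PA peaks here. A start listed in at least 12 fewer PA than WT libraries was found at 0.0552% of 32585 RefSeq starts, and in at least 12 more at 0.166%. Starts that no library lists are among the 32585. The same contrast chose the members, and the cut lies near their own differences (−13 at Hsd3b5 and 12 at Hsd3b1). Nothing is therefore read from these shares.

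**Figure D2:**
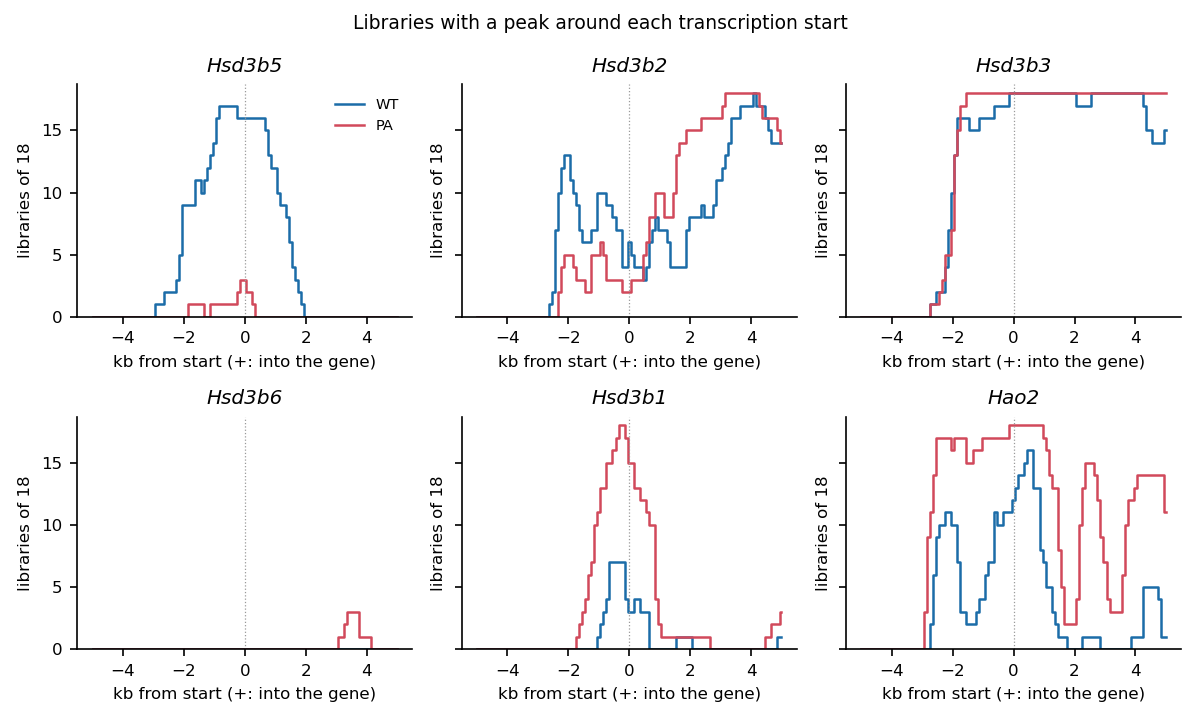
Number of libraries out of 18 per genotype (y axis) with a peak at each distance from the transcription start (x axis, kb, positive into the gene), blue for WT and red for PA. The PA line is near 0 around the Hsd3b5 start, both lines reach 18 at Hsd3b3, neither rises at the Hsd3b6 start, and the PA line is above the WT line at Hsd3b1 and Hao2.

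In the body of Hsd3b5, in contrast to its start, peaks were listed in all libraries of both genotypes. To place the differences along the cluster, bases listed in at least 9 of the 18 libraries of either genotype were joined across gaps of up to 500 bp, which gave 22 marked stretches over 281.7 kb. The stretch over the Hsd3b5 start (chr3:98644172-98647570) had 2534 ± 435 bp covered in WT and, in PA, 149 ± 128 bp, and was touched by a peak in 18 WT and 4 PA libraries. The stretch in the gene body (chr3:98628393-98636969) was touched in 18 and 18 libraries, with 7300 ± 976 bp in WT and 5669 ± 1202 bp in PA. Its preparations overlapped only between the letters A and B, which were used for different antibodies. Within each letter both PA values lay below both WT values. In A they were 4471.5 and 4884 bp against 5963 and 7362.5 bp. In B they were 6265 and 7057 bp against 7578 and 8296 bp. With A and B pooled, 16 of the 22 stretches overlapped between genotypes, 5 had all PA preparations above WT and 1, the Hsd3b5 start, had all below. Some of the 16, such as the gene body stretch, overlapped only between the letters. The share over such stretches elsewhere in the genome was not computed. The same contrast chose the members, so nothing is read from these counts.

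**Figure D3:**
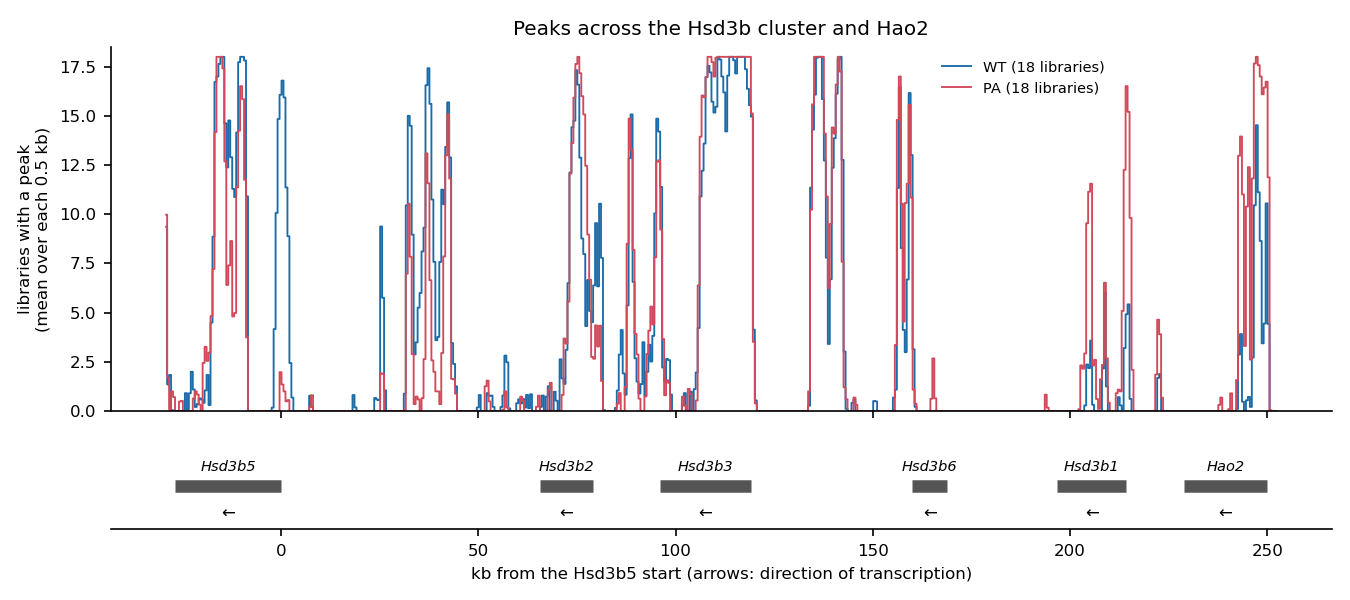
Number of libraries out of 18 per genotype with a peak (y axis, mean over each 0.5 kb) against the distance in kb from the Hsd3b5 start (x axis), with the 6 genes drawn to scale below. The blue WT peak at 0 has almost no red counterpart, while the blocks at Hsd3b3 reach 18 in both genotypes.

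Upstream of Hsd3b5, between that gene and Hsd3b2, 4 stretches lay 25 to 42 kb from the start, and 3 of them fall in the annotated pseudogenes Gm12399 and Gm12400. Their covered length was lower in PA on average, from 272 ± 62.3 to 60.9 ± 122 bp in the first (chr3:98670722-98671221) and from 2154 ± 496 to 1036 ± 421 bp in the third (chr3:98681330-98684331), but the preparations of the 2 genotypes overlapped in all 4. H3K9ac covered 0 bp of the first pair of these stretches in its 4 libraries, where H3K27ac covered 250 and 916 bp on average.

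At Hsd3b2, the nearest Hsd3b neighbour, the genotypes overlapped over the whole window. Its covered length was 4640, 4592, 4341 and 6919 bp in WT 1A, 2A, 1B and 2B and 4657, 5571, 5012 and 5758 bp in the PA preparations, with means of 5123 ± 1205 and 5249 ± 506 bp. WT 2B stood apart from the other WT preparations. Inside the gene the stretch chr3:98718558-98723729 had more covered length in PA on average, 4141 ± 375 bp against 3321 ± 634 bp. The preparations did not overlap but nearly touched, with 3736 bp in PA 1A, the lowest PA value, and 3730 bp in WT 1A, the highest WT value. This stretch does not reach the start. The start itself was listed in 6 WT and 2 PA libraries, and all 6 of those WT libraries came from preparations 2A and 2B.

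Hsd3b3 was the most widely marked member in either genotype. Of its window, peaks covered 13223, 13772, 14416 and 16404 bp in WT and 14497, 14836, 15168 and 16113 bp in PA, or 51.5% and 54.0% of the window, and the groups overlapped. Both of its annotated starts were listed in 18 of 18 WT and 18 of 18 PA libraries, under peaks with a median width of 12619 bp in WT and 13221 bp in PA. The block over the starts (chr3:98751596-98765208) had 12279 ± 809 bp covered in WT, and 13166 ± 129 bp in PA. H4K16ac was the 1 antibody with both PA libraries above both WT libraries, at 14247 and 14055 bp against 9806 and 9942 bp. H3K27ac was the 1 antibody with both below, at 15909 and 15605 bp against 17008 and 16438 bp.

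Hsd3b6 had little covered length, and its start was listed in 0 of 18 WT and 0 of 18 PA libraries. The window values were 1096, 1128, 1695 and 1317 bp in WT and 1052, 1747, 1499 and 2274 bp in PA, so the groups overlapped. Most of what was covered lay past the far end of the gene, in a stretch (chr3:98803633-98805503) between Hsd3b3 and Hsd3b6 with 1016 ± 147 bp in WT and 1291 ± 287 bp in PA.

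**Figure D4:**
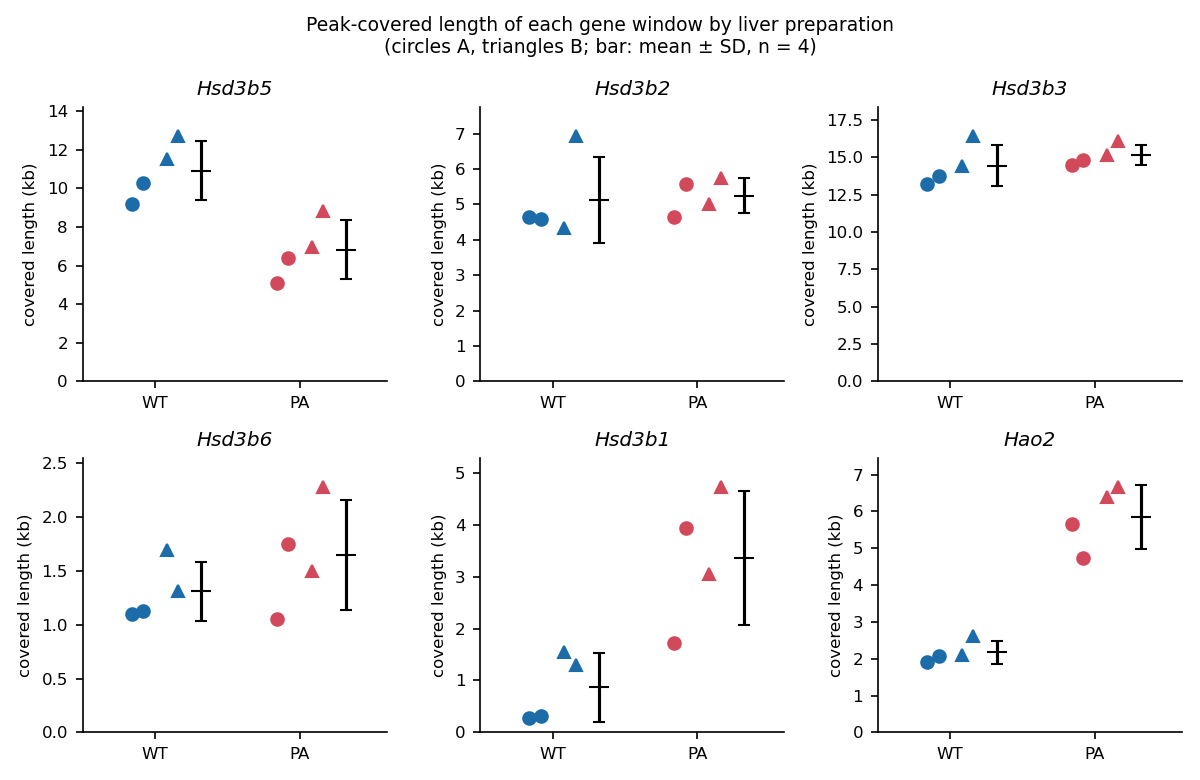
Covered length in kb (y axis) of each gene window in the 4 WT (blue) and 4 PA (red) preparations, circles for A and triangles for B, with the mean and SD (n = 4) in black. The genotypes do not overlap at Hsd3b5, Hsd3b1 and Hao2 and overlap at Hsd3b2, Hsd3b3 and Hsd3b6.

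Hsd3b1, the classical steroidogenic form, had more covered length in PA liver. The WT preparations 1A, 2A, 1B and 2B had 284, 321, 1558 and 1298 bp and the PA preparations 1726, 3941, 3043 and 4718 bp. All PA values lay above all WT values, and the means were 865 ± 658 and 3357 ± 1285 bp (SD, n = 4), a ratio of 3.88. WT libraries with 0 bp numbered 4 of 18, and no PA library had 0 bp. The level in PA, 15.0% of the window, was still below that of Hsd3b5 in PA. The antibodies differed in how much they listed in PA, from 910 and 1236 bp with H3K9ac and 1709 and 500 bp with H4K16ac to 3387 and 8655 bp with H3K27ac in PA 1 and PA 2, and both PA libraries were above both WT libraries with 9 of 9 antibodies.

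At the start of Hsd3b1 a peak was listed in 3 WT and 15 PA libraries. In the 2000 bp around it, WT 1A, 2A, 1B and 2B had 159, 0, 200 and 1092 bp and the PA preparations 1337, 1434, 1248 and 1801 bp. WT 2B therefore came close to the lowest PA preparation, while the other WT preparations had at most 200 bp. The PA peaks over the start had a median width of 2001 bp. A second stretch further inside the gene (chr3:98849750-98851126) had 202 ± 177 bp in WT and 794 ± 604 bp in PA, and its preparations overlapped.

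Hao2 also had more covered length in PA liver, with the narrowest spread among the members that differed. The WT preparations had 1906, 2084, 2101 and 2625 bp and the PA preparations 5661, 4727, 6383 and 6654 bp. The lowest PA value was well above the highest WT value, the means being 2179 ± 310 and 5856 ± 862 bp (SD, n = 4), a ratio of 2.69, or 8.43% and 22.6% of the window. H4K16ac showed it as listed against not listed, with 0 and 0 bp in WT and 3022 and 3145 bp in PA. H4K16bu went from 763 and 854 bp in WT to 5692 and 4224 bp in PA, and with H3K27ac the libraries had 4128 and 4478 bp in WT and 8058 and 5626 bp in PA.

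The start of Hao2 was listed in 12 of 18 WT libraries and 18 of 18 PA libraries, and the edge of the annotated gene, 2146 bp further upstream, in 11 and 17. Around the start 1099, 932, 1101 and 1731 of 2000 bp were covered in WT and 1799, 2000, 1997 and 2000 bp in PA. The difference extended from the start into the gene: the stretch over the start (chr3:98891733-98896040) had 1928 ± 260 bp in WT and 3909 ± 106 bp in PA. A further stretch (chr3:98890252-98891044) was touched in 1 WT and 15 PA libraries, and another (chr3:98888183-98889577) in 6 and 15.

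**Figure D5:**
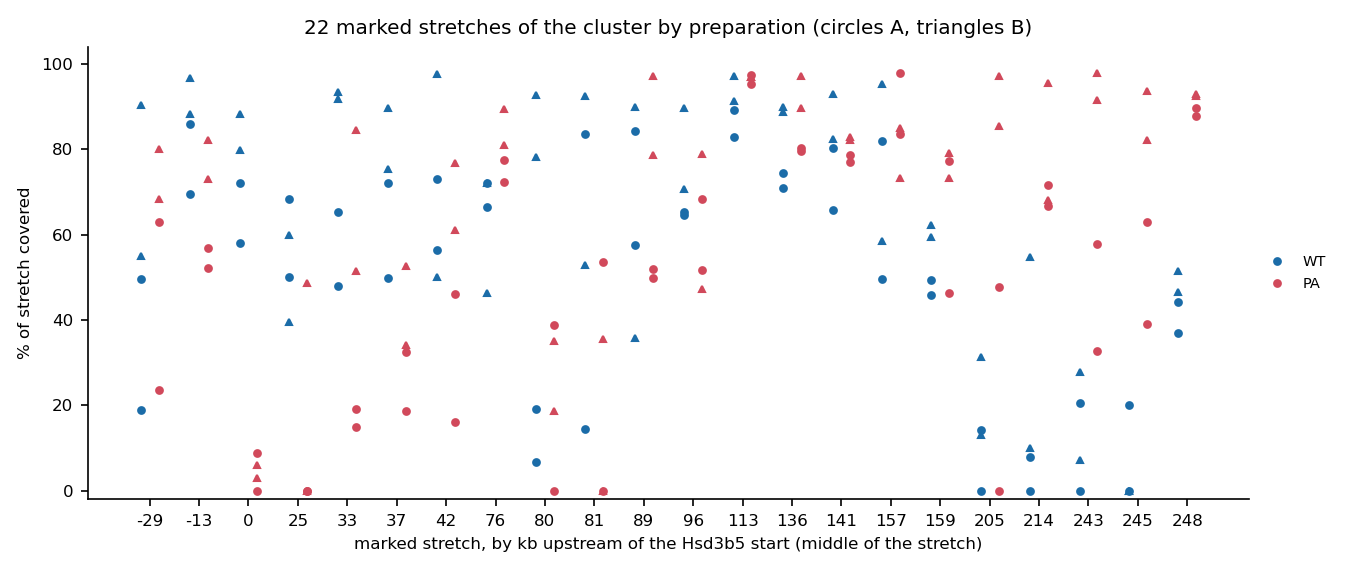
Share of each of the 22 marked stretches covered by peaks (y axis, percent) in the 4 WT (blue) and 4 PA (red) preparations, ordered along the cluster and labelled by the distance in kb of their middle from the Hsd3b5 start (circles A, triangles B). The stretch at 0, over the Hsd3b5 start, is at 4.39% on average in PA and 74.5% in WT, and the last stretch, over the Hao2 start, at 90.7% and 44.8%.

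Within the Hsd3b5 window the marks ranked, by mean covered length over their 4 libraries, from H4K5ac (12853 ± 2819 bp) and H3K27ac (12019 ± 2825 bp) through H4K12ac, H4K5pr, H4K16pr, H4K16bu and H4K12pr (10041 to 8587 bp) to H4K16ac (5130 ± 2144 bp) and H3K9ac (5034 ± 2434 bp). Neighbours in that order were closer than their SDs, except for the step from H4K12pr to H4K16ac. The SDs include the genotype difference. The in-house H4K16pr antibody listed 4504 and 500 bp in its WT libraries, against 8642 and 13611 bp for the Thermo antibody, and it listed 0 and 0 bp at both Hsd3b1 and Hao2.

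Marks were compared with each other by limma, which the choice of members did not use, over all genes that at least 2 of the 8 libraries covered and with genotype as a term. H3K27ac covered more than H3K9ac at Hsd3b5, Hsd3b2 and Hsd3b6, which are 3 of the 6 members, where 19.2% of 15618 genes were called wider in H3K27ac and 9.6% wider in H3K9ac. At Hsd3b5, H3K27ac libraries had 13050 and 14973 bp in WT and 8265 and 11787 bp in PA, all above the H3K9ac values given earlier, a difference of 6985 bp (SE 844, adjusted p = 0.00137, limma with Benjamini-Hochberg adjustment). At Hsd3b2, H3K27ac libraries had 6976, 8037, 5825 and 9117 bp and H3K9ac libraries 2179, 1346, 1250 and 1975 bp, also without overlap, a difference of 5801 bp (SE 713, limma adjusted p = 0.00142). Both marks were thus listed at these genes, and H3K9ac over a narrower length.

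The Hsd3b6 difference was 1209 bp (SE 274, limma adjusted p = 0.0156). It was lost with the gene body alone (adjusted p = 0.529), without PA replicate 1 (0.0795) or PA replicate 2 (0.0898), and with WT libraries only (0.267). With the gene body alone it was 178 bp, since most of what is listed there lies beyond the gene. Hsd3b3 differed by 2106 bp (interval 263 to 3949 bp, adjusted p = 0.0856), Hsd3b1 by 2705 bp (−343 to 5752 bp) and Hao2 by 1192 bp (−42.1 to 2426 bp), and none of these was called. Hao2 was called without PA replicate 2 (1685 bp, adjusted p = 0.0334). H3K9ac libraries had 15 to 18 peaks in the span of the cluster and H3K27ac libraries 19 to 29.

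No difference between acylation and acetylation of the same lysine was called at any of the 6 members by limma. For H4K5pr against H4K5ac, 0 members were called and 2 had an unadjusted p under 0.05, where 1.42% of 15012 genes were wider in H4K5pr and 1.29% in H4K5ac. Hsd3b5 came nearest, with a difference of −3191 bp (95% interval −5634 to −748 bp, adjusted p = 0.156), followed by Hsd3b2 with −2132 bp (−3911 to −353 bp, adjusted p = 0.191). For H4K12pr against H4K12ac, 0 members were called by limma and 0 had an unadjusted p under 0.05, where the shares were 0.211% and 0.0198%, and the Hsd3b5 interval ran from −2961 to 53.8 bp.

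For H4K16bu against H4K16ac, 0 members were called by limma and 2 had an unadjusted p under 0.05, where 0.00704% of 14210 genes were wider in H4K16bu and 0.0% in H4K16ac. The intervals at Hsd3b5 (846 to 6425 bp, adjusted p = 0.192) and Hao2 (404 to 2279 bp, adjusted p = 0.165) lay above 0 before adjustment over all genes. Without PA replicate 1 the Hsd3b5 difference was 5428 bp and was called (adjusted p = 0.0328), so 1 preparation decides that call. Missing the threshold does not show that the marks cover these genes alike.

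Around the cluster, 11 further protein-coding genes lie within 500 kb. Of the 7 that could be tested between genotypes, limma called 3 higher in PA and 0 lower (5 and 0 at an unadjusted p under 0.05), where 21.3% of all 16079 genes tested were called higher and 0.914% lower. Wars2, the nearest gene beyond Hao2 and a mitochondrial tryptophanyl-tRNA synthetase, rose from 2399 ± 473 to 5136 ± 1061 bp (limma adjusted p = 0.00234). Phgdh, the first enzyme of serine synthesis, rose from 1230 ± 723 to 1832 ± 643 bp (adjusted p = 0.0219), and Notch2, a receptor of the Notch pathway, from 35994 ± 3156 to 45104 ± 4089 bp (adjusted p = 0.0443). Wars2 was called in 8 of 8 fits that left out 1 preparation, Phgdh in 5, not without WT 2A, WT 1B or PA 1A (0.0638 to 0.0773 by limma), and Notch2 in 1. Hsd3b4, Gm10681 (the nearest gene on the Hsd3b5 side), Gm4450 and Adam30 were listed at 0 in 36 of 36 libraries. Hsd3b4 and Gm10681 may be close copies of other genes, which was not measured here, and a loss of their reads in alignment was not tested.

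Genes that act beside the members were counted in the same fit, in lists chosen with earlier results of these data known. Of 22 tested genes of steroid metabolism, limma called 2 higher in PA and 0 lower (5 and 2 at an unadjusted p under 0.05): Hsd17b11, a 17-beta-hydroxysteroid dehydrogenase (9282 ± 650 to 12007 ± 1712 bp, adjusted p = 0.0165), and Cyp39a1, an oxysterol hydroxylase (9323 ± 1475 to 10990 ± 813 bp, adjusted p = 0.0372). Of 26 genes of peroxisomal oxidation, 1 was higher, Acox2, the oxidase of branched-chain and bile acid intermediates (14051 ± 1019 to 20402 ± 1619 bp, adjusted p = 0.00376), and 0 lower (2 and 1 at an unadjusted p under 0.05). With 1 preparation left out Acox2 was called in 8 of 8 fits, Hsd17b11 in 6, not without PA 1A or PA 2A, and Cyp39a1 in 2. Hao1, the glycolate oxidase related to Hao2, had 13868 ± 2076 bp in WT and 14514 ± 1753 bp in PA (adjusted p = 0.692). The median difference was 559 bp over the steroid list and 388 bp over the peroxisomal list, and 495 bp over all genes tested.

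Sex-biased liver genes were counted because Hsd3b5 is male-biased. These lists, too, were chosen with earlier results of these data known. Their counts beside the shares over all genes therefore describe the lists and test nothing about them. Of 10 tested male-biased genes 3 fell and 1 rose, where 0.914% of all genes tested were called lower and 21.3% higher. Susd4 fell from 2367 ± 656 to 388 ± 269 bp (adjusted p = 0.00247), Slco1a1, a bile acid and steroid conjugate transporter, from 8449 ± 961 to 4628 ± 1607 bp (adjusted p = 0.00459), and Elovl3, a fatty acid elongase, from 1840 ± 316 to 798 ± 451 bp (adjusted p = 0.0155). Cyp2d9 rose from 2760 ± 700 to 4206 ± 680 bp (adjusted p = 0.00653). Of 18 female-biased genes 5 fell and 7 rose, against the same shares, so the calls in this list went both ways. Sult3a1 fell from 8580 ± 430 to 1767 ± 1277 bp (adjusted p = 0.000491), and Cyp3a44 (14377 ± 1579 to 8728 ± 1843 bp), Cyp3a41b (1104 ± 352 to 31.2 ± 62.5 bp) and Cyp3a16 (7977 ± 2751 to 404 ± 476 bp) fell as well. The median difference was −67.1 bp over the male-biased and 832 bp over the female-biased list. Of the genes named from these lists, all were called in 8 of 8 fits with 1 preparation left out, except Elovl3 without WT 2A (adjusted p = 0.0524 by limma). The number of female-biased genes called higher was 2 without WT 1B or without PA 2A.

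These calls depend on the scale. With quantile normalization between preparations the median difference of all genes moved from 495 to −50.4 bp, and the calls from 3422 higher and 147 lower to 890 and 719. The female-biased list then had 0 higher and 6 lower, the male-biased list 0 and 3, the steroid list 0 and 4, the peroxisomal list 1 and 4, and the flanking genes 1 and 0. On that scale the difference, PA minus WT, was −5641 bp at Hsd3b5, 2144 bp at Hsd3b1 and 2959 bp at Hao2, and it turned to −861 bp at Hsd3b2 and −1695 bp at Hsd3b3.

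The genes whose covered length varied most like that of Hsd3b5 over the 36 libraries were Cyp3a44 (Pearson r = 0.894), Tiam2 (0.884), Sucnr1 (0.866), Ulk4 (0.857) and Gpr176 (0.843). Those most like Hao2 were Tnfrsf19 (0.917), Lrrn4 (0.906), Tuba8 (0.901), Olig1 (0.896) and Esrrg (0.896). Libraries share antibody, preparation and genotype, so these values describe the libraries and carry no p. Among the members themselves, Hsd3b5 and Hao2 had r = −0.233 over the same libraries and Hsd3b1 and Hao2 r = 0.648.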

How the data were processed

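Each of the 38 deposited files lists the enriched regions of 1 ChIP-seq library, and the authors' deposited columns are, per the file contents, a chromosome, a start and an end on GRCm38 (mm10). No read number or rank comes with a region. The submitters' processing notes name HOMER 4.10, bedtools 2.31.0, Bowtie2 2.5.1, R 4.1.2, cutadapt 3.5 and SAMtools 1.17 without roles or settings. The sources used here give neither the settings of the peak caller and any use of inputs nor the handling of repeated sequence and the read depth. The 8 inputs of the 46 samples were not used here, and chromosome Y was left out (20 entries in 18 libraries).

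Base pairs covered by peaks were computed for each gene body plus 2.5 kb on either side (RefSeq, GRCm38.p6). The mean over the antibodies of a preparation entered a limma 3.58.1 model (R 4.3.3) with a trend and terms for genotype and preparation letter, for genes that at least 2 libraries covered. Marks were compared in fits of 8 libraries on mark and genotype. P-values were two-sided and adjusted by Benjamini-Hochberg over all genes tested, at 0.05. P-values of the genotype fit measure the spread between these preparations, and A and B of the same number may come from the same liver. Those of the mark fits measure the spread between libraries and treat libraries of the same preparation as independent, except in the fit with the replicate block. The genotype contrast chose the members, so only flanking genes and gene lists use its calls. Strand and starts came from RefSeq promoters, which matched 6 of 6 members with 7 starts. Python 3.11.15, numpy 2.4.6, pandas 2.3.3, biopython 1.88 and matplotlib 3.10.9 did the rest.

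The members and lists were chosen with earlier results of these data known. Named genes were the members, flanking genes that were called or nearest, up to 4 called members of each list with the smallest unadjusted p, and 5 genes most like Hsd3b5 and Hao2. Hao1, Hsd3b4, Gm4450 and Adam30 were added after their values were seen. In a simulation with 200 changed genes, the PA vs WT fit over 16079 genes recovered 17.9% at a shift of 1000 bp, 44.8% at 2000 bp and 83.3% at 4000 bp, and the fit of H3K27ac against H3K9ac over 15618 genes recovered 16.4%, 34.3% and 59.1%.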

Additional observations from a re-analysis of the deposited data

Results flagged for a closer look

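Of 22 groups of 4 preparations with any spread, 3 held 1 preparation far from the other 3, and chance gives this in about 1 group in 20. At Hsd3b2, WT preparation 2B had 6919 bp of the gene window covered, where the other WT preparations had 4341 to 4640 bp. At the second start of Hsd3b3, WT preparation 1A had 1978 of 2000 bp covered and the other 3 had all 2000 bp. At the start of Hao2, PA preparation 1A had 1798 of 2000 bp covered, where the other PA preparations had 1997 to 2000 bp. The last pair of groups is close to the most that the window can hold, which makes small gaps stand out. None of 24 differences between marks at the members had opposite signs in all libraries of the 2 genotypes.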

How the results depend on the processing

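The genotype difference kept its sign under all 16 alternatives at Hsd3b5 (−5641 to −2614 bp), Hsd3b1 (higher by 1685 to 3035 bp), Hao2 (2959 to 4156 bp) and Hsd3b6 (11.0 to 568 bp). At Hsd3b5, Hsd3b1 and Hao2 the preparations of the genotypes did not overlap. Leaving out 1 preparation, using A or B alone or averaging them could therefore not change the sign there, and those alternatives are no check of it. It changed sign in 7 of 16 at Hsd3b2 (−861 to 756 bp) and in 1 of 16 at Hsd3b3 (−1695 to 1350 bp). Quantile normalization moved 4 of them by more than the spread between preparations: Hsd3b5 to −5641 bp, Hsd3b2 to −861 bp, Hsd3b3 to −1695 bp and Hao2 to 2959 bp. The cause was not tested.

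The 3569 genes called between genotypes became 1833 with equal numbers of peaks, 1609 with quantile normalization, 2040 with no filter, 1976 without the H4K16ac libraries, 1546 with A and B averaged, 640 with preparation A only and 3 with preparation B only (fewer samples). They ranged from 1966 to 4374 when 1 preparation was left out: 1966 without WT 2A, 2000 without WT 1B and 2188 without PA 2A. In the lists, leaving out 1 preparation gave 2 to 6 higher and 5 to 6 lower of the female-biased genes, 1 higher and 2 to 3 lower of the male-biased, 0 to 4 and 0 to 1 of the steroid genes (0 higher without PA 1A or PA 2A), 1 to 2 and 0 to 1 of the peroxisomal, and 1 to 3 higher of the flanking genes (1 without WT 2A, WT 1B or PA 1A). With the replicate number as a block 2672 genes were called. Deviations of same-numbered WT and PA preparations had correlations of −0.121 (A) and −0.183 (B), so the numbers do not pair them. With the crossed pairing, added after seeing the data, 3853 were called.

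Calls for H4K5pr against H4K5ac (406) became 213 with the gene body alone, 165 with quantile normalization, 67 with no filter, 696 with the replicate block, 1 with WT and 1 with PA libraries only, and 3 to 12 with 1 preparation left out. Those for H4K12pr against H4K12ac (35) became 11 with the gene body alone, 1 with equal numbers of peaks, 111 with quantile normalization, 0 with no filter, 19 without the trend, 261 with the block, and 0 with 1 genotype or with 1 preparation left out. Those for H4K16bu against H4K16ac (1) became 23 with the gene body alone, 206 with equal numbers of peaks, 31 with quantile normalization, 6 with no filter, and 0 without the trend, with the block or with 1 genotype, and 0 to 810 with 1 preparation left out, the 810 without PA replicate 1. Where limma called 0 genes in these pairs, 814 to 3605 had an unadjusted p under 0.05. Those for H3K27ac against H3K9ac (4496) became 957 with WT and 1846 with PA libraries only, and 2961 to 3672 with 1 preparation left out. In that pair quantile normalization gave 1672 genes wider in H3K27ac and 2037 in H3K9ac. With 1 preparation left out, the remaining one of its genotype is assumed to vary like the rest.

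Libraries of a preparation deviated together (r = 0.355 to 0.647), except H4K16bu and H4K16ac in PA (−0.378), and the block changed no call at a member. Hsd3b5 and Hsd3b2 stayed wider in H3K27ac than in H3K9ac in 12 of 13 alternatives each (adjusted p 0.000964 to 0.0597 and 0.000749 to 0.0724), the exception being PA libraries only. Hsd3b6 was called in 9 of 13.

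Differences between marks that no fit called reversed as follows. Quantile normalization gave −635 bp (H4K12pr, Hsd3b3), −393 bp (H4K16bu, Hsd3b2), −997 bp (H4K16bu, Hsd3b3) and −1368 bp (H3K27ac, Hsd3b3). PA libraries only gave 420 bp (H4K5pr, Hsd3b6), −338 bp (H4K12pr, Hsd3b6) and 368 bp (H4K12pr, Hao2), and WT libraries only gave 279 bp (H4K12pr, Hsd3b1). The gene body alone gave −210 bp and 5 kb on either side −38.5 bp (H4K12pr, Hsd3b6). With 1 preparation left out, H4K5pr ranged from −501 to 1072 bp at Hsd3b3 and from −640 to 68.3 bp at Hsd3b6. H4K12pr ranged from −285 to 322 bp at Hsd3b6, from −709 to 174 bp at Hsd3b1 and from −459 to 378 bp at Hao2, and H4K16bu from −75.3 to 1355 bp at Hsd3b2 and from −104 to 1791 bp at Hsd3b1. Without read depth, no limit can be set on a mark at a base that is not listed.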
